A study of Mus musculus with 2 samples.

Results

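The miRNAs described here lie within and around Rtl1 on distal chromosome 12 of the mouse. They were all names in the list of known miRNAs of the study, star strands left out, that are miR-127, miR-136, miR-337, miR-341, miR-431, miR-433, miR-434, miR-540, miR-665 or miR-673. The rule gave 12 names from 9 precursors, out of 1669 distinct miRNA starts that could be counted in the same data. A start is the set of all sequences that share their first 18 nucleotides. Small RNAs of whole brain from male C57BL/6J mice, an inbred strain with no transgene or treatment, were sequenced at 2 ages. The young library came from 2 mice of 5 months and the old library from 2 mice of 24 to 25 months, and the cDNA of the animals of an age was combined before sequencing. After alignment and adapter removal by the authors, the deposited files held 4523267 young reads in 372464 distinct sequences (tags) and 6658732 old reads in 505732 tags. With 1 library per age, no difference below has a replicate check. A test on reads speaks of these libraries only, and not of age. Intervals cover counting error only, since PCR reads are not independent molecules.

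Rtl1 is a gene derived from a retrotransposon and is expressed from the paternal chromosome of the imprinted Dlk1-Dio3 domain. The miRNAs of the opposite strand are made from long noncoding transcripts of the maternal chromosome, among them Meg3, Rian and Mirg. A miRNA cut from within the reverse strand of Rtl1 is fully complementary to the Rtl1 mRNA and can direct its cleavage, while its seed, the bases from position 2 to 8, selects other targets.

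The mature sequences are shown because the position, the seed and the ends of the reads all refer to them. They are written 5′ to 3′ with the seed in capitals. For 10 names the sequence is the RefSeq entry of the GRCm38.p6 table, and for both names of miR-337 it is a tag that differs from the RefSeq entry. The first 6 lie opposite the coding exon of Rtl1, the next 5 lie beyond the 3′ end of Rtl1, on the side of Meg3, and the last lies beyond its 5′ end.
mmu-miR-431: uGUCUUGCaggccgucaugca
mmu-miR-433: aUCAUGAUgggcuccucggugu
mmu-miR-127: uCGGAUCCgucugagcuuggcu
mmu-miR-434-5p: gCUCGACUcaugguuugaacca
mmu-miR-434-3p: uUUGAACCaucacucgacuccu
mmu-miR-136: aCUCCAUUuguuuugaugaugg
mmu-miR-673-3p: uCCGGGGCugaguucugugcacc
mmu-miR-337-5p: gAACGGCGucaugcaggaguu
mmu-miR-337-3p: uUCAGCUCcuauaugaugccu
mmu-miR-540-5p: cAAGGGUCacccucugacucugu
mmu-miR-540-3p: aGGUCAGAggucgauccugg
mmu-miR-341: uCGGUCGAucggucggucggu

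The 12 seeds were all different. In the RefSeq table only the seed of miR-540-3p was shared with another mature miRNA, miR-6915-5p. The longest stretches that members had in common were 9 nt long, between miR-337-5p and miR-431 and between the arms of miR-434. Each of the 12 starts had 1 match in the NCBIM37 (mm9) genome, so no read of a start was divided among loci.

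All 9 precursors lie on the plus strand, and Rtl1 on the minus strand. The Rtl1 gene spans chr12:110827404-110838540 and its coding sequence, in 1 exon, spans chr12:110828382-110833613. Mir431 (chr12:110828657-110828747), Mir433 (chr12:110829925-110830048), Mir127 (chr12:110831056-110831125), Mir434 (chr12:110832716-110832809) and Mir136 (chr12:110833537-110833598) lie inside this coding exon on the opposite strand. Mir673 (chr12:110810200-110810290), Mir337 (chr12:110823999-110824095) and Mir540 (chr12:110824290-110824356) are between Meg3 and Rtl1, and the closest of them, Mir540, ends 3048 nt from the Rtl1 gene. Mir341 (chr12:110849710-110849805) is in an intron of Rian, 11170 nt on the other side. The name Rtl1 antisense therefore holds for 5 of the 9 precursors and 6 of the 12 names, and the others are its neighbours in the domain.

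The sites on the Rtl1 coding strand opposite the most abundant of these miRNAs are given as reverse complements of the named sequences. Their perfect pairing follows from the position and is not a separate result. It holds for the named sequences and not for the added 3′ bases described below. Capitals mark the bases opposite the seed. The site of miR-127 covers coding nucleotides 2495 to 2516, that of miR-433 covers 3602 to 3623, and that of miR-136 covers 52 to 73.
Rtl1 site of miR-127: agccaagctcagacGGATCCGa
Rtl1 site of miR-433: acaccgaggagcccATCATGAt
Rtl1 site of miR-136: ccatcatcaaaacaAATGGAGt

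The reads came from the miRNA strand. Tags with a perfect match in the 5 precursors opposite Rtl1 held 112923 reads in both libraries together, and tags of the complementary strand, which is that of the Rtl1 mRNA, held 0. A count of 0 allows up to 0.00266% of that number. Over all 9 precursors the numbers were 130075 and 0.

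Together the 12 starts held 127464 reads, or 2.82% of the young library, and 76906 reads, or 1.15% of the old library. Most of them were of miR-127, which made up 76.4% of the members' reads in the young and 75.0% in the old library. The levels covered a wide range, from 1.33 RPM (reads scaled to a library of 1000000) for miR-673-3p to 21521 for miR-127 in the young library. The order from the highest down was the same in both libraries for miR-127 and miR-433, and miR-341 stood in the third place in both.

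**Figure D1:**
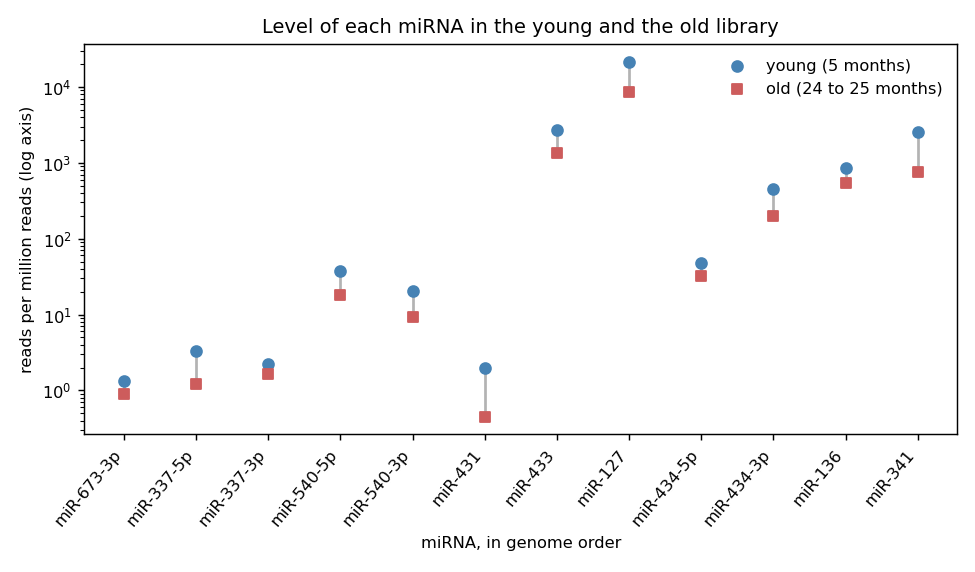
Level of each of the 12 miRNAs in RPM, on a log axis, in genome order from Meg3 towards Rian; circles stand for the young library and squares for the old library, each a single library. miR-127 has the highest level in both, 21521 and 8664, and each square lies below its circle with all reads as the depth, an order that TMM and DESeq2 turn for miR-673-3p, miR-337-3p and miR-434-5p.

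All 12 starts had a lower RPM in the old library, and 8 of them were at least 2-fold lower. With the scaling factors of TMM and of DESeq2, 9 of the 12 were lower and miR-673-3p, miR-337-3p and miR-434-5p were slightly higher. Of the 10 starts with at least 10 reads in a library, 7 were at least 2-fold lower, beside 31.4% of all 366 miRNA starts with that number of reads (115 starts). The median log2 ratio of old over young was -1.11 over the 12 members and -0.65 over the 366 starts, of which 80.9% were below 0. The exact binomial test of the reads, two-sided and with Benjamini-Hochberg adjustment over the 366 starts, gave an adjusted p under 0.05 with a lower level in the old library for 9 of the 10 members, beside 59.8% of all starts. With TMM and DESeq2 the test left 5 of the 10 members, beside 26.2% and 26.5% of all starts. The 7 and the 9 both include miR-337-5p, counted at a start with 15 and 8 reads. The RefSeq start of its arm, with 466 and 469 reads, had a ratio of -0.55. Most miRNAs were thus lower in the old library at this depth, and the members' median was 0.46 log2 units below that of all starts.

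The size of this general shift depended on the depth used. The let-7 and miR-98 starts held 34.1% of all reads in the young library and 49.0% in the old library. Without these reads in the depth, all log2 ratios rose by 0.37, the members' median was -0.74 and all 12 were below 0, beside 66.1% of all starts. The TMM factor raised all ratios by 0.66 and the DESeq2 size factor by 0.65, which put the median of all starts at 0.02 with TMM and the members' median at -0.45 and -0.46. Scaling by the reads of known miRNAs lowered all ratios by 0.15 (shift -0.15) and gave a members' median of -1.26. The distance between both medians is the same under each of these 4 depths. Over all starts, 115 were at least 2-fold lower and 8 at least 2-fold higher with total reads, 57 and 21 without let-7 and miR-98, 32 and 37 with TMM, and 33 and 36 with DESeq2. Scaling by the reads of known miRNAs gave 147 and 3. Fewer cells that make a miRNA and less of it per cell cannot be told apart in whole brain.

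**Figure D2:**
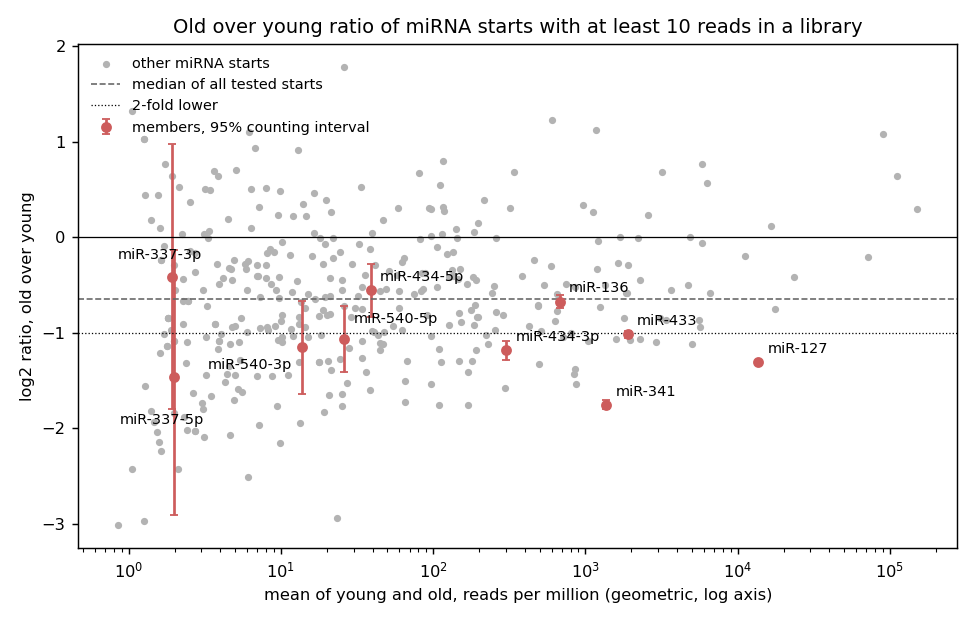
Log2 ratio of old over young against the mean level in RPM (log axis) for the 366 miRNA starts with at least 10 reads in a library; the 10 members that passed are shown with 95% counting intervals, the others as grey points. The members lie between -0.42 and -1.75, most of them below the median of all starts, -0.65; with the TMM and DESeq2 factors the whole plot moves up by 0.66 and 0.65.

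GC content moved with the ratios as well. Over the 366 starts the log2 ratio fell by 0.37 for each 10% of GC, as the slope of a line (GC content across miRNAs, which share both libraries). The members had a median GC content of 56.8% and all starts one of 47.8%. With the line subtracted, the members' median was -0.87, 0.22 below that of all starts. Below 0 were 11 of the 12, beside 84.4% of all starts, the exception being miR-673-3p at 0.05.

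**Figure D3:**
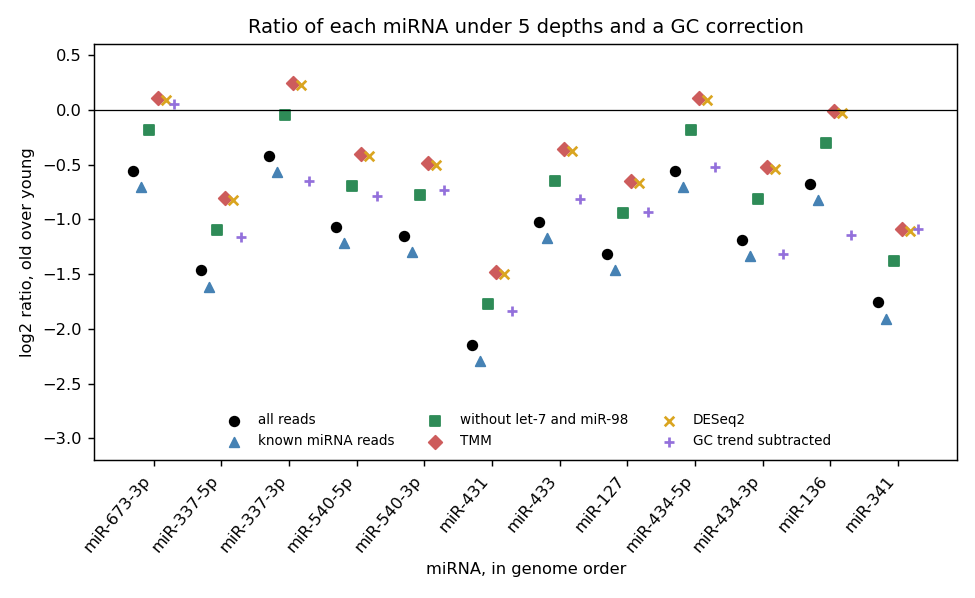
Log2 ratio of old over young of each of the 12 miRNAs with 5 depths (all reads, known miRNA reads, all reads without let-7 and miR-98, TMM, DESeq2) and with the GC line subtracted. All points of miR-341, miR-127, miR-433, miR-434-3p, miR-431 and miR-540 lie below 0, and miR-434-5p, miR-337-3p and miR-673-3p lie above 0 with TMM and DESeq2, miR-673-3p also with the GC line subtracted.

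Among the miRNAs opposite Rtl1, miR-127 was the most abundant. It had 97344 reads in the young and 57691 in the old library, which is 21521 and 8664 RPM. Its rank was 7 in the young and 9 in the old library among the 366 starts, which hold none of miR-124. The young level was the higher, with a log2 ratio of -1.31 (95% counting interval -1.33 to -1.30), or 2.48-fold lower in the old library. The ratio was -0.65 with TMM and -0.67 with DESeq2. The RefSeq start of its 5p arm, miR-127-5p, had 3558 and 2083 reads and a ratio of -1.33 (-1.41 to -1.25). With any start the 5p arm had 8661 and 5955 reads and a ratio of -1.10, and the 3p arm one of -1.31.

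The mature strand of miR-433 is the 3p arm. It had 12279 reads in the young and 8913 in the old library, or 2715 and 1339 RPM. The old level was the lower, with a ratio of -1.02 (-1.06 to -0.98), which is close to the 2-fold limit. Its 5p arm had 184 and 189 reads and a ratio of -0.52 (-0.82 to -0.22), which was 0.14 with TMM and 0.13 with DESeq2.

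At miR-434 the arms differed. The RefSeq start of the 3p arm had 2064 and 1335 reads, or 456 and 200.5 RPM, a ratio of -1.19 (-1.29 to -1.09; exact adjusted p = 4.96e-124). The RefSeq start of the 5p arm had 213 reads in each library, or 47.1 and 32.0 RPM, a ratio of -0.56 (-0.84 to -0.28; exact adjusted p = 0.000159). That of the 5p arm was 0.10 with TMM and 0.09 with DESeq2, so its direction depends on the depth, while the 3p arm stayed below 0 with both.

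For miR-136, read mainly from the 5p arm, the counts were 3883 and 3581, or 858 and 538 RPM. The ratio of -0.67 (-0.74 to -0.61; exact adjusted p = 1.90e-89) was near the median of all starts, and it was -0.01 with TMM and -0.03 with DESeq2. With the GC line subtracted it was -1.15, and with the named tag alone, which had 44 and 58 reads, it was -0.16 (exact adjusted p = 0.682). TMM and DESeq2 move all ratios alike. The place of miR-136 among the miRNAs thus depends on the GC line and on the tags counted.

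The name miR-431 belongs to the 5p strand, which was rare. It had 9 reads in the young and 3 in the old library, under the minimum of 10, with a ratio of -2.14 and a wide interval (-4.66 to -0.14). The 3p arm of the same precursor held nearly all reads, 965 and 604 with any start, and its ratio was -1.23. That arm was 99.1% of the reads of both arms in the young library (95% Clopper-Pearson interval 98.3 to 99.6%) and 99.5% in the old (98.6 to 99.9%).

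Between Meg3 and Rtl1, miR-540 was read from both arms. Its 5p arm had 171 and 120 reads and a ratio of -1.07 (-1.42 to -0.72; exact adjusted p = 9.69e-10). Its 3p arm had 92 and 61 reads and a ratio of -1.15 (-1.64 to -0.67; exact adjusted p = 3.16e-06). Both arms were higher in the young library. With TMM the ratios were -0.41 and -0.49, and the 3p arm no longer passed the exact binomial test (adjusted p = 0.0741). The size for the 3p arm also depended on the tags counted. Its ratio was -2.81 with the named tag alone, which had 19 and 4 reads, and -1.68 with genome-matched tags.

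Few reads began where the names of miR-337 put the start. miR-337-5p had 15 and 8 reads with a ratio of -1.46 (-2.91 to -0.14; exact adjusted p = 0.029, and 0.308 with TMM), and miR-337-3p had 10 and 11 reads with a ratio of -0.42 (-1.80 to 0.97; exact adjusted p = 0.575). The RefSeq start of the 5p arm, 3 nt further downstream, had 466 and 469 reads and held 94.4% of that arm over both libraries. Its ratio of -0.55 (-0.74 to -0.36) was above that of the named start and near the median of all starts, and it was 0.11 with TMM and 0.10 with DESeq2. The RefSeq sequence of the 5p arm is given for comparison with the named one above.
mmu-miR-337-5p, RefSeq: cGGCGUCAugcaggaguugauu

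miR-673-3p had 6 reads in each library and a ratio of -0.56 with an interval on both sides of 0 (-2.46 to 1.35), so no difference was detectable at this depth. No name of miR-665 without a star was in the list.

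miR-341, in the Rian intron, had the lowest ratio of the 10 members tested. It had 11378 reads in the young and 4964 in the old library, or 2515 and 745 RPM. The level was 3.37-fold lower in the old library, a ratio of -1.75 (-1.80 to -1.71). It was the only member of the 10 tested that was still at least 2-fold lower with TMM (-1.09) and DESeq2 (-1.11). Its GC content of 66.7% is the highest of the members, and with the GC line subtracted its ratio was -1.09. It was then no longer the lowest, with miR-434-3p at -1.32, miR-337-5p at -1.16 and miR-136 at -1.15. With the named tag alone its ratio was -1.86, above the -2.81 of miR-540-3p.

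The median ratio was -1.10 for the 6 names opposite Rtl1 and -1.11 for the other 6. Both values rest partly on starts with few reads. Opposite Rtl1 this is miR-431, with 9 and 3 reads. Among the others they are miR-673-3p, miR-337-3p and miR-337-5p (15 and 8 reads, ratio -1.46). The RefSeq start of miR-337-5p had a ratio of -0.55, and in its place the median of the other 6 would be higher. Other starts of the Dlk1-Dio3 domain were counted without the members' other arms and miR-665. Of 47 with at least 10 reads in a library, 37 were lower in the old library, beside 80.9% of all starts. At least 2-fold lower were 19 of the 47 (40.4%, beside 31.4% of all starts) and 0 were at least 2-fold higher, and their median was -0.72. With TMM and DESeq2 that median was -0.06 and -0.07, 25 of the 47 were lower, and 6 and 7 were at least 2-fold lower. The difference between the members and the rest of the domain was not tested.

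Nearest in ratio to the 3 most abundant members, among 117 other starts with at least 1000 reads, were the following, each compared over 2 libraries only. For miR-127 they were miR-345-3p (-1.31), miR-329-5p (-1.30) and miR-423-5p (-1.30). For miR-433 they were miR-186-5p (-1.03), miR-488-3p (-1.03) and miR-7b-5p (differing by 0.0159). For miR-341 they were miR-770-3p (-1.76), miR-129-5p (-1.76) and miR-139-3p (-1.58). Of these, miR-770-3p and miR-329-5p belong to the same domain.

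The ratio of arms within a precursor does not depend on the depth. With the RefSeq starts of both arms, the share of the 3p arm could be compared at 8 precursors by Fisher's exact test with adjustment over the 8. At miR-434 it was 90.6% in the young library (95% Clopper-Pearson interval 89.4 to 91.8%) and 86.2% in the old (84.4 to 87.9%; adjusted p = 0.000215). At miR-433 it was 98.5% (98.3 to 98.7%) and 97.9% (97.6 to 98.2%; adjusted p = 0.00408). The 5p arm, the minor one at both, thus took a larger share in the old library. For miR-433 the adjusted p was 0.283 when only the single named tags were compared. miR-127 had shares of 96.5% in both libraries (adjusted p = 1), and with any start of an arm it had 92.0% and 90.9% (adjusted p = 2.73e-15). At the other 5 precursors the adjusted p was 0.192 or higher with the RefSeq starts, and that of miR-136 was 0.0030 with any start (10.1% and 12.2%).

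On several arms the main 5′ end was not the RefSeq start, which moves the seed. On the 3p arm of miR-431, 79.0% of the reads began 2 nt upstream of it, 756 in the young and 484 in the old library. On the 3p arm of miR-136, 82.8% began 1 nt upstream, 386 and 432 reads. The seeds of these starts are GCAGGUC in place of AGGUCGU, and AUCAUCG in place of UCAUCGU.

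The 5p arm of miR-127 had 2 frequent starts, the RefSeq start and another 2 nt downstream. The RefSeq start had 41.1% of the arm in the young library (40.0 to 42.1%) and 35.0% in the old (33.8 to 36.2%; exact adjusted p = 1.53e-12). The downstream start had 46.7% (45.7 to 47.8%) and 53.6% (52.3 to 54.8%; exact adjusted p = 1.61e-14). The RefSeq start was thus the smaller of the pair in both libraries, and the ratio of the downstream start was -0.90. With TMM and DESeq2 this ratio also stayed below 0.

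The 3p arm of miR-341 also had 2 frequent starts, 4 nt apart. The RefSeq start had 51.4% of the arm in the young library (50.8 to 52.1%) and 52.2% in the old (51.2 to 53.2%; exact adjusted p = 0.395). The downstream start, with the seed CGAUCGG in place of CGGUCGA, had 39.8% (39.2 to 40.5%) and 36.6% (35.6 to 37.5%; exact adjusted p = 5.82e-07), from 8804 and 3479 reads. Its ratio was -1.90, also lower in the old library. In all, 34 starts of 8 precursors were compared and 12 had an adjusted p under 0.05.

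**Figure D4:**
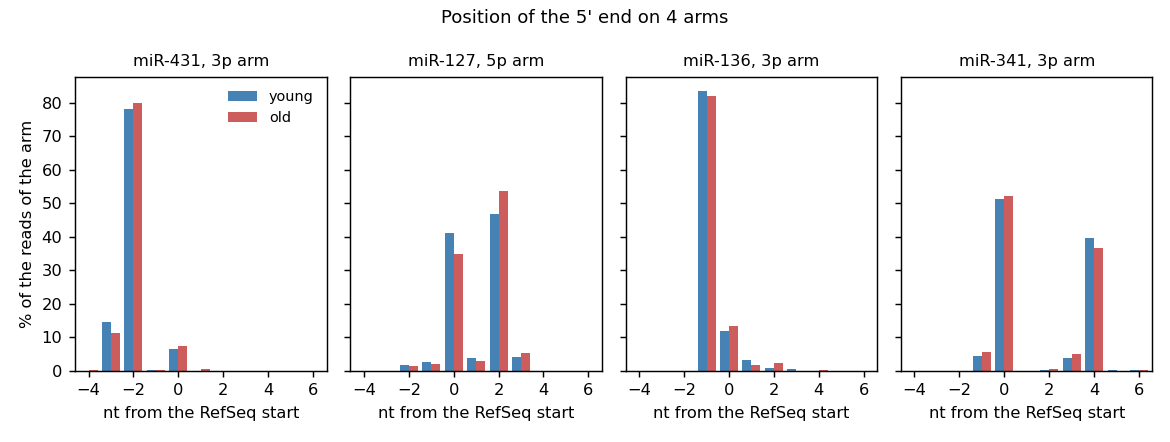
Share of the reads of an arm (%) by the position of the 5′ end, in nt from the RefSeq start (negative is upstream), for 4 arms in the young and the old library. miR-431 and miR-136 peak upstream of 0, and miR-127 and miR-341 each have a main pair of starts, 2 and 4 nt apart.

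The 3′ ends of several members held many bases that are not in the genome at that place, and 3 abundant ones are described, chosen after the values had been seen. The tags that show it are given with the seed in capitals, the most read tag of miR-136 and of miR-341 over both libraries, and the most read tag of miR-127 followed by its next.
miR-136: aCUCCAUUuguuuugaugauggaa
miR-341: uCGGUCGAucggucggucgguu
miR-127: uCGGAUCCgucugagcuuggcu
miR-127, added A and T: uCGGAUCCgucugagcuuggcau

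For miR-127 the sequence named in RefSeq was 39.3% of the reads of the start in the young and 33.6% in the old library. The tag in which A and T follow the first 21 bases had 15188 and 12823 reads. All reads that ended in added A and T were 23.5% of the start in the young library (23.3 to 23.8%) and 31.6% in the old (31.3 to 32.0%; exact adjusted p = 2.13e-261). Reads that matched the genome to their end were 48.1% (47.8 to 48.4%) and 40.6% (40.2 to 41.0%). The old library was thus richer in the longer form of miR-127. The ratio of the genome-matched reads was -1.56 and that of the reads with A and T was -0.89, on either side of the -1.31 of the whole start. At 137 other miRNA starts with at least 100 reads in each library, the median share with added A and T was 0.262% and 0.230%, and 0 of them had a share above that of miR-127. The highest was that of miR-370-3p, with 18.8% in the young and 14.2% in the old library. The share was higher in the old library at 75 of the 137.

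For miR-341 the RefSeq sequence was 14.0% of the start in the young and 13.0% in the old library. The tag with an added T was 69.3% and 70.6%. All reads with only T added were 74.4% (73.6 to 75.2%) and 76.6% (75.4 to 77.8%; exact adjusted p = 0.0211). The median of the 137 other starts was 4.29% and 4.32%, and 0 were above miR-341. The highest was that of miR-652-3p, with 56.1% and 59.8%. The 3′ adapter begins with T, so an added T and a first base of the adapter that trimming left cannot be told apart, for miR-341 and also for the final T of the A and T of miR-127.

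For miR-136 the RefSeq sequence was 1.13% of the start in the young and 1.62% in the old library, and its reads were mainly longer. The tag that extends it by an A of the genome was 46.3% and 41.8%, and the tag of 24 nt, with a further A that the genome does not hold, was 44.6% and 47.5%. Reads with only A added were 45.6% (44.1 to 47.2%) and 48.8% (47.1 to 50.4%; exact adjusted p = 0.0412). With tags that hold an undetermined base left out, that adjusted p was 0.0529. The median of the 137 other starts was 7.33% and 7.66%, and 0 were above miR-136. The highest was that of miR-370-3p, with 41.1% and 44.3%.

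miR-540-3p, with 92 and 61 reads, was too rare to be compared. Its reads matched the genome to their end in 40.2% of the young (30.1 to 51.0%) and 27.9% of the old library (17.1 to 40.8%). The 3′ ends of miR-433 and miR-434-3p were nearer to those of other miRNAs. Reads that matched the genome to their end were 85.1% and 84.7% of miR-433 and 91.2% and 89.5% of miR-434-3p, in the young and the old library. Over the reads of 546 other starts together they were 84.0% and 84.9%.

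**Figure D5:**
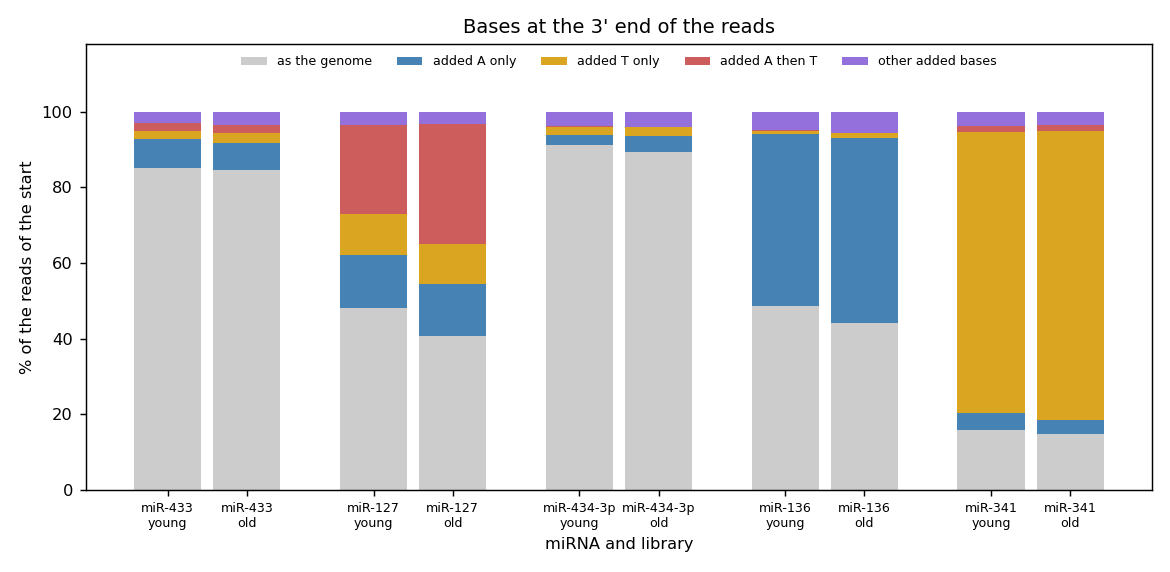
Share of the reads of 5 miRNA starts (%) by the bases at their 3′ end, in the young and the old library: as the genome, added A only, added T only, added A followed by T, and other added bases. Added A and T made up 23.5% and 31.6% of miR-127, added T 74.4% and 76.6% of miR-341, and added A 45.6% and 48.8% of miR-136.

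The libraries were those of brain. The 3 brain starts were miR-128-3p and both arms of miR-9. miR-128-3p had 22807 RPM in the young and 13512 in the old library, and miR-9-5p had 4399 and 2989. The third, miR-9-3p, was the higher in the old library, with 395 and 926, and the 3 summed to 27602 and 17426. Markers of other sources were given for comparison. The 12 marker starts counted all had reads in both libraries. The 3 blood starts, led by miR-451a, summed to 312 RPM in the young and 181 in the old library. The 2 choroid plexus starts, led by miR-204-5p, summed to 83.6 and 30.6. The 2 pituitary starts, miR-7a-5p and miR-7b-5p, summed to 3795 and 2509, muscle miR-206-3p had 1231 and 1195, and endothelial miR-126a-3p had 13.5 and 15.8. The part of these sources in the members' levels was not tested.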

How the data were processed

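The deposited values were raw read counts of each distinct sequence. The authors excised small RNA from gels, ligated adapters, sequenced 36-nt reads, removed the 3′ adapter, aligned with SOAP to mm9 and collapsed identical reads; no normalization was applied. The version of SOAP was not given in the sources used here. No column of another sample was used.

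Each named miRNA was assigned a tag that held both counts listed for it. Such counts belonged to 1 tag for 7 of the 12 names and to 7 to 382954 tags for the others, so the RefSeq sequence of that name was taken (10 names) or, where it did not hold the counts, the tag on the named arm of the precursor (both names of miR-337; of 2 for miR-337-5p, the first). All tags that share its first 18 nt were summed, as for every RefSeq mature miRNA. Depth was the total reads (4523267 young, 6658732 old), and a count of 0 was set to 0.5. Intervals were exact (95%, Clopper-Pearson), and 3 reads were the limit for a count of 0. Exact binomial tests were adjusted by Benjamini-Hochberg over the 366 starts with at least 10 reads in a library, and shares were compared by Fisher's exact test, 56 shares of 3′ ends at members with at least 100 reads in each library being adjusted together. Called lower means at least 2-fold, or an adjusted p under 0.05. Added bases were those after the last base that matched the genome. Positions came from perfect matches to NCBIM37 and its GENCODE annotation. An undetermined base in the first 18 nt kept reads out of any start (young 2.47%, old 0.626%).

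Alternatives were the named tag alone, 16 or 20 nt, genome-matched tags, 4 other depths, a GC line, 1 added read, read minimums of none and 50, the random sampling model of DEGseq, and edgeR's exact test with an assumed coefficient of variation. Calls and intervals were tested on simulated counts, drawn with counting error only. They held no spread between mice, so they cannot show how calls behave under it. The comparison of 3′ ends with other starts and the values of the RefSeq start of miR-337 were chosen after values had been seen, as were a GC line for the counts and other depths for the exact test. Python 3.11.15, numpy 2.4.6, scipy 1.17.1, matplotlib 3.10.9, R 4.3.3, edgeR 4.0.16 and DESeq2 1.42.0 were used. Named miRNAs were the members, their other arms, counts over the rest of the domain (a letter after a listed number was allowed, as in miR-299a), the nearest in ratio and markers of tissue sources. Members and lists were chosen with earlier results of these data known.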

Additional observations from a re-analysis of the deposited data

How the results depend on the processing

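No paired analysis was possible because each age had 1 library. The 9 members with a call gave 90 ratios under the alternatives. Of these 11 were counted as no longer passing (miR-337-5p 5, miR-136 3, miR-540-3p 2, miR-434-5p 1), and 2 reversed: that of miR-434-5p was 0.10 with TMM and 0.0875 with DESeq2 (exact adjusted p = 0.567 and 0.636). No test was run on the ratios with the GC line subtracted. The ratio of miR-337-5p with the named tag alone, among its 5, was not tested either. Outside the counting interval of the main ratio lay 41 of the 90, 28 with the 4 other depths, 5 with the GC line, 4 with the named tag and 4 with genome-matched tags. Of the 3 members without a call, miR-673-3p turned its sign in 4 alternatives and miR-337-3p in 2. With the named tag alone the ratio was -4.37 for miR-431, -2.81 for miR-540-3p, -0.56 for miR-337-5p, 0.44 for miR-673-3p and -0.16 for miR-136. The named tags of miR-431 (7 and 0 reads) and miR-673-3p (0 and 1) had a count of 0 that was set to 0.5. That of miR-337-5p had 1 read in each library. With genome-matched tags the 5 ratios were -2.73, -1.68, -1.46, -1.29 and -0.81. The causes were not tested. The 3p share of miR-127 differed by 0.04 points with the RefSeq starts and by -1.13 with any start. The members' median moved from -1.11 to -0.45 with TMM and -0.46 with DESeq2, which move all ratios alike. Members at least 2-fold lower numbered 7, and 1 with TMM, 1 with DESeq2, 2 without let-7 and miR-98 and 7 with known miRNA reads. For all starts the 115 became 32, 33, 57 and 147. Added after the values had been seen, the GC line gave 4 members and 107 starts. Also added then were other depths for the exact binomial test, by which 9 of 10 members and 219 starts were lower with total reads. These counts became 5 and 96 with TMM, 5 and 97 with DESeq2, and 7 and 150 without let-7 and miR-98. With known miRNA reads they were 9 and 240. With no read minimum all starts gave 271 of 710 (38.2%) and the members 8 of 12, and at 50 reads 69 of 253 (27.3%) and 6 of 8. By tests in place of a fold, all starts lower numbered 229 with the random sampling model and 219 with the exact test. edgeR's exact test called 174 starts lower with an assumed variation of 0.1, 57 with 0.2 (3 members: miR-127, miR-341 and miR-434-3p) and 0 with 0.4 (0 members), so calls depend on a spread between mice that 1 library per age cannot give. Depth limits miR-431, miR-673-3p and both names of miR-337.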

Other observations

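Other miRNA starts of the same stretch were not among the 12 names. miR-770-3p, within Meg3, had 906 reads in the young and 395 in the old library, a ratio of -1.76 (95% counting interval -1.93 to -1.58). miR-370-3p, in an intron of Rian, had 207 and 106 reads, a ratio of -1.52 (-1.88 to -1.18), and miR-1188-5p, also there, had 20 and 8. With TMM each of these ratios rises by 0.66 and stays below 0. miR-665-3p had 95 and 89 reads, a ratio of -0.65 (-1.09 to -0.22), which TMM puts close to 0. miR-493-5p had 19 and 32 reads, a ratio of 0.19 (-0.67 to 1.10).

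miR-432, whose precursor also lies opposite the coding exon of Rtl1, had 0 reads of its RefSeq start in both libraries. The RefSeq starts of miR-3071 and miR-3544, which are transcribed from the other strand at Mir136 and Mir337, had 0 reads as well.

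Many reads of miR-370-3p also ended in untemplated bases. Added A was in 41.1% of its young and 44.3% of its old reads, near the 45.6% and 48.8% of miR-136. Added A and T were in 18.8% and 14.2%, below the 23.5% and 31.6% of miR-127. The reason was not tested.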
